A study of Gallus gallus with 3 samples.

Results

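Embryonic globins and other red cell genes were followed in endoderm, the inner germ layer that lines the gut, of chick embryos. The genes were HBBR, HBZ, HBA1, HBAD, CA2, TAL1 and GATA1, and every probe set that the platform annotation assigned to one of these symbols alone was taken. This gave 13 probe sets for 6 of the 7 genes, out of 13050 genes and 37693 chicken probe sets. GATA1 was not analysed here, since no probe set carried its name in the annotation used.

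RNA came from 3 pools of chick endoderm, each collected at intervals of 4 hours over 1 day; the labels give no genotype, strain or treatment. The early pool was endoderm of Hamburger-Hamilton stages 4 to 5, which are named for the appearance of the embryo, lifted off the mesenchyme with a needle and gathered from 500 embryos. The foregut pool (stages 10 to 11, in front of the anterior intestinal portal) and the mid/hindgut pool (stages 8 to 10, behind the future small intestine) were cut out with mesenchyme around them, which was then taken off after 30 minutes in 0.03% collagenase. One Affymetrix Chicken Genome Array was run for each pool, so n = 1 in every group, there is no replicate check, and no p-value is given. Stage, position and dissection differ between the pools at once and cannot be told apart.

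Haemoglobin is built from alpha-type and beta-type globin chains, each holding a haem. The first, primitive, red cells of a bird arise in blood islands of the extraembryonic mesoderm, next to yolk sac endoderm and together with the first vessels. In the chicken, HBZ (pi globin) and HBBR (rho globin) are embryonic alpha-type and beta-type chains, while HBA1 (alpha-A) and HBAD (alpha-D) are made in embryonic and in later red cells. TAL1 and GATA1 are transcription factors of the red cell line, and TAL1 also acts in blood vessel precursors. CA2 is a carbonic anhydrase of the red cell cytoplasm that is also made in several epithelia.

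All values are MAS5 signals on a linear scale, after scaling the arrays to one 2% trimmed mean. Signals under a floor of 22.1 units, the 40th percentile of chicken probe sets, were set to the floor before folds were taken. A fold against an array below the floor is a lower bound, written "at least". A difference of 2-fold was the call. Between probe sets of the same gene, over 4127 genes, log2 differences had a spread (SD for 1 probe set) of 0.31 for mid/hindgut against early endoderm, 0.43 for foregut against early and 0.36 for mid/hindgut against foregut. This spread covers probe noise alone. Only 3 of the 13 member probe sets were above the floor on all arrays, and it does not cover the others. The 3' over 5' signal of actin, a measure of RNA and labelling quality, was 1.55 (early), 1.69 (foregut) and 2.19 (mid/hindgut). It has the same order as the globins below, and its part in their differences was not tested.

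The globins were highest in mid/hindgut endoderm. HBZ (NCBI gene 416650) had signals of 61.9 (early), 297 (foregut) and 1536 (mid/hindgut), above the floor in all pools. It was 24.8-fold higher in mid/hindgut than in early endoderm (log2 difference 4.63), 4.79-fold higher in foregut than in early (2.26) and 5.18-fold higher in mid/hindgut than in foregut (2.37).

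HBA1 (NCBI gene 416652) had signals of 23.4 (early), 50.7 (foregut) and 538 (mid/hindgut), the first lying just over the floor. It was 23.0-fold higher in mid/hindgut than in early endoderm, 10.6-fold higher than in foregut, and 2.17-fold higher in foregut than in early. A second HBA1 probe set gave 1.71, 7.54 and 619 in the same order, at least 27.9-fold higher in mid/hindgut than in either other pool. The third stayed below the floor on all arrays, with a highest signal of 0.608, and gives no measure of the gene.

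HBAD (NCBI gene 416651) had signals of 19.1 (early, below the floor), 81.1 (foregut) and 240.1 (mid/hindgut). It was at least 10.8-fold higher in mid/hindgut than in early endoderm, at least 3.66-fold higher in foregut than in early, and 2.96-fold higher in mid/hindgut than in foregut. The suffix of this probe set marks probes that match more than one transcript, so part of its signal may belong to a related sequence. An HBAD probe set without that mark gave 1.94, 7.79 and 118, above the floor in mid/hindgut alone, and the last gave 1.58, 1.18 and 1.42.

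HBBR (NCBI gene 419079) had signals of 2.13 (early), 50.2 (foregut) and 718 (mid/hindgut). It was at least 32.4-fold higher in mid/hindgut than in early endoderm, 14.3-fold higher in mid/hindgut than in foregut, and at least 2.27-fold higher in foregut than in early. This embryonic beta-type chain had 1 probe set, so no second reading exists. HBE (epsilon globin), another embryonic beta-type gene and no member of the list, had 68.7 (early), 82.9 (foregut) and 599 (mid/hindgut). It was 8.72-fold higher in mid/hindgut than in early endoderm, while foregut and early were within 2-fold (log2 difference 0.27). HBBA and HBE1 had no probe set of their own. A probe set shared by HBBR and HBBA and another shared by HBE1 and HBBA stayed below the floor, with highest signals of 1.84 and 5.29.

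**Figure D1:**
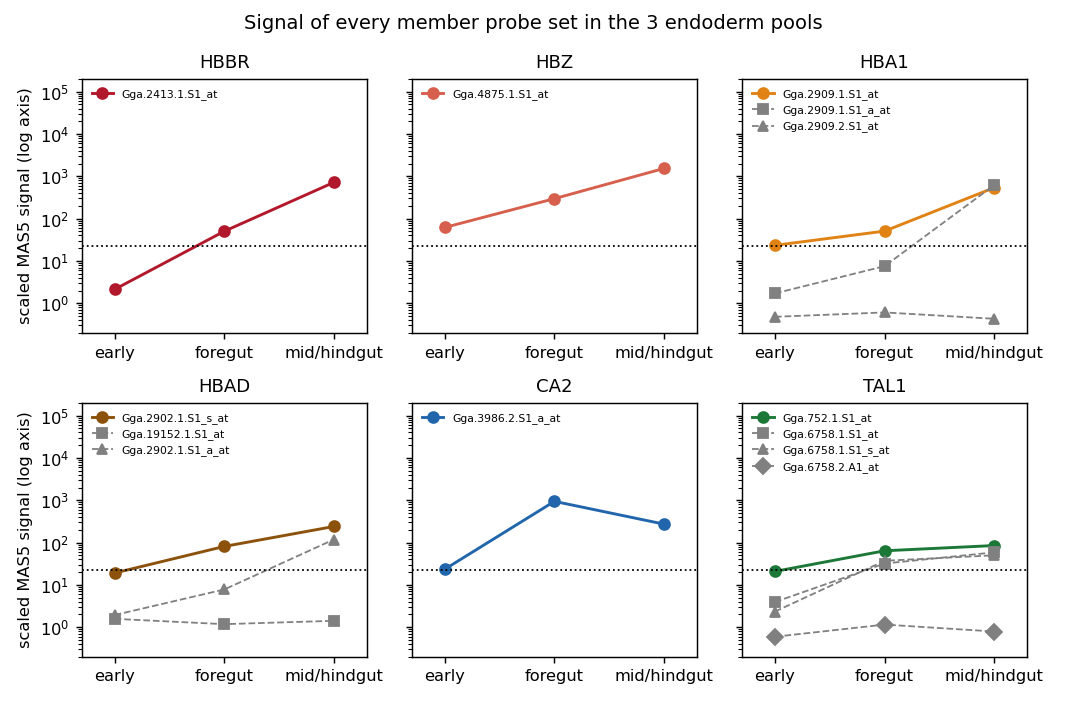
Scaled MAS5 signal (log axis) of the 13 member probe sets in the 3 pools, 1 panel a gene. Coloured solid lines are the probe set that stands for the gene, grey dashed lines the others, and the dotted line is the floor of 22.1. The globin lines climb to mid/hindgut, where HBZ reaches 1536, whereas CA2 peaks in foregut at 943.

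CA2 (NCBI gene 396257) had signals of 23.5 (early), 943 (foregut) and 273 (mid/hindgut). It was 40.1-fold higher in foregut than in early endoderm and 11.6-fold higher in mid/hindgut than in early, folds that rest on an early value just over the floor. In contrast to the globins it was 3.45-fold lower in mid/hindgut than in foregut (log2 difference −1.79). A single probe set stands for CA2.

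TAL1 (NCBI gene 396298) had signals of 20.9 (early, below the floor), 64.0 (foregut) and 85.1 (mid/hindgut). It was at least 2.89-fold higher in foregut and at least 3.84-fold higher in mid/hindgut than in early endoderm, and the later pools lay 1.33-fold apart. Of its other probe sets one gave 3.95, 32.0 and 58.7, the next 2.35, 37.2 and 50.0, and the last at most 1.16. All TAL1 signals were low, and the first 2 of these were less than 2-fold apart between foregut and early endoderm once floored.

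In mid/hindgut against early endoderm all 6 measured members were at least 2-fold higher, as were 8.12% of 10766 measured genes, while 5.14% were lower. The members' median log2 difference was 4.03, against 0.03 over all genes. In foregut against early all 6 were again higher, as were 10.6% of 10822 genes, while 6.5% were lower. There the members' median was 1.70, against 0.08 over all genes. In mid/hindgut against foregut the 4 globins were higher, where 5.74% of 10929 genes were, CA2 was lower, where 6.36% were, and TAL1 was within 2-fold. HBAD, HBBR and TAL1 were below the floor in early endoderm and so entered the comparisons with it through the later pools alone. The 3 comparisons share arrays and are not independent.

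Places among all measured genes, ordered from the highest log2 difference down with bounds taken at their value, can be given for members above the floor in both pools. In mid/hindgut against early endoderm HBZ stood at place 24, HBA1 at 25 and CA2 at 66. In foregut against early CA2 stood at place 7, HBZ at 202 and HBA1 at 935. HBA1 thus lay near the 2-fold mark in foregut and near the top of the array in mid/hindgut. Between the later pools HBBR stood at place 30, HBA1 at 43, HBZ at 95 and HBAD at 244, and CA2 at place 188 from the lowest.

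**Figure D2:**
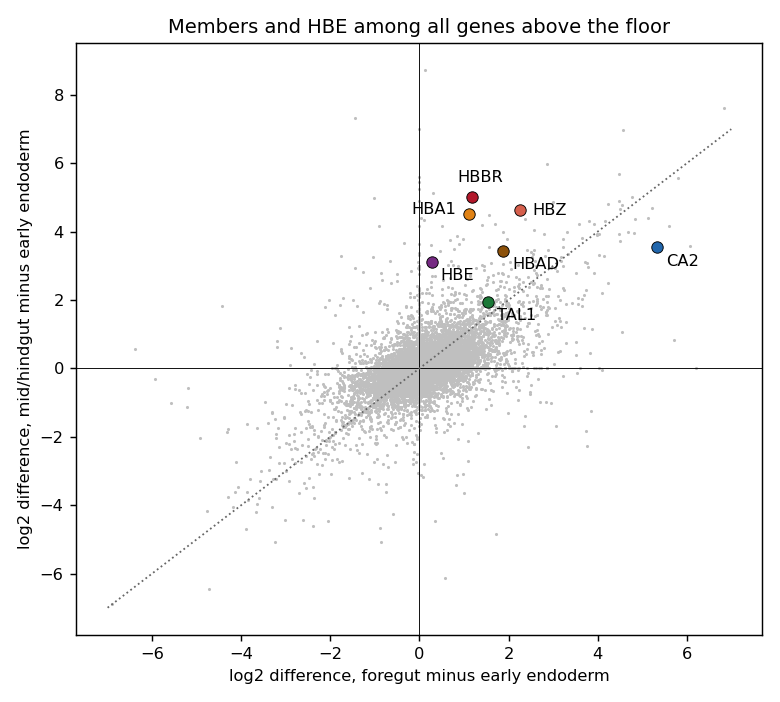
Each grey point is a gene above the floor in at least 1 pool, placed by its log2 difference foregut minus early (horizontal) and mid/hindgut minus early (vertical); the dotted line marks equal differences. The 4 member globins and HBE lie above the line, CA2 (5.32 and 3.54) below it, and TAL1 (1.53 and 1.94) close to it.

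Calls in foregut against early endoderm changed with the processing more often than those in the other comparisons. With the floor at the 60th percentile, 60.5 units, HBZ and CA2 were still at least 2-fold higher in foregut than in early endoderm, and with the median across probe sets HBZ, CA2 and HBBR were. Without scaling HBA1 was within 2-fold there, and HBAD was below the floor in both pools when probe sets shared between transcripts were left out, so that no difference was measured. In mid/hindgut against early endoderm TAL1 was not called (0.49) under the higher floor, and the other members kept their call in all 10 alternatives to the scaling, floor and probe set. HBBR, HBZ and CA2 have 1 probe set each, so the probe set alternatives could not change their values in any comparison. HBZ was above even the higher floor in all pools, so the floor alternatives could not change it either. The widest range was that of HBBR, whose early signal of 2.13 lies far under the floor: 3.57 with the higher floor to 8.397 with none in mid/hindgut, and 0 to 4.56 in foregut. Between the later pools HBAD was at 0.96 when arrays were scaled on hybridisation controls, which put the median of all genes at −0.60.

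**Figure D3:**
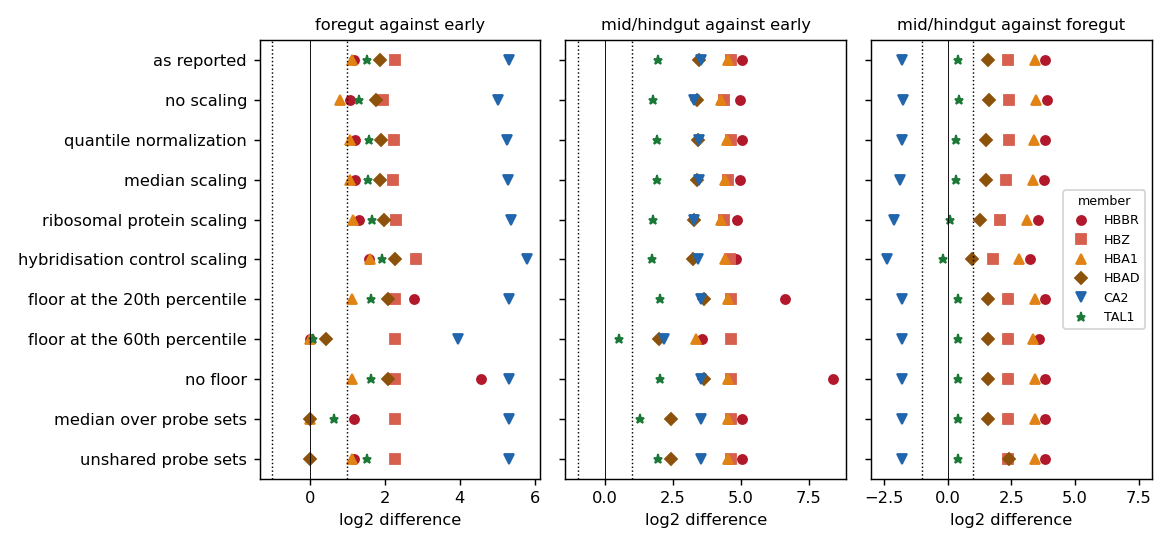
Log2 differences of the 6 measured members (symbols) under the reported processing and 10 alternatives (rows), 1 panel a comparison; dotted lines mark 2-fold. In foregut against early, HBBR, HBA1, HBAD and TAL1 lie below 1 with the floor at the 60th percentile, while in mid/hindgut against early TAL1 alone does.

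The globin genes lie in an alpha-type and a beta-type cluster, and no measured neighbour was called in any comparison. Of all measured genes, 8.12% were higher and 5.14% lower in mid/hindgut than in early endoderm. In foregut against early these shares were 10.6% and 6.5%. With so few neighbours measured, a lack of calls lies near those shares and is no result about the neighbours. The gene order was taken from the RefSeq annotation of assembly GRCg7b, 5 protein-coding genes to each side. The platform's gene identifier for HBE was not in that annotation, so HBE was placed by its symbol alone. Around HBZ, HBAD and HBA1 all 10 neighbours had a probe set and 8 were above the floor in some pool, with log2 differences from −0.91 to 1.00 for mid/hindgut against early endoderm. The highest was MPG, a DNA repair glycosylase gene, with 51.1 (early), 94.8 (foregut) and 102 (mid/hindgut), just under 2-fold. AXIN1 was the lowest, with 631 (early), 359 (foregut) and 335 (mid/hindgut), also near the 2-fold mark. NPRL3, next to HBZ, whose introns hold the distant enhancer of the alpha-type globin genes in mammals, had 48.7, 44.4 and 45.4 in the same order. Around HBE, HBBA, HBE1 and HBBR 6 of 10 neighbours had a probe set and 3 were above the floor, with log2 differences from −0.45 to 0.69. The highest of these was FOLR1, a folate receptor gene, with 43.8, 45.6 and 70.6.

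**Figure D4:**
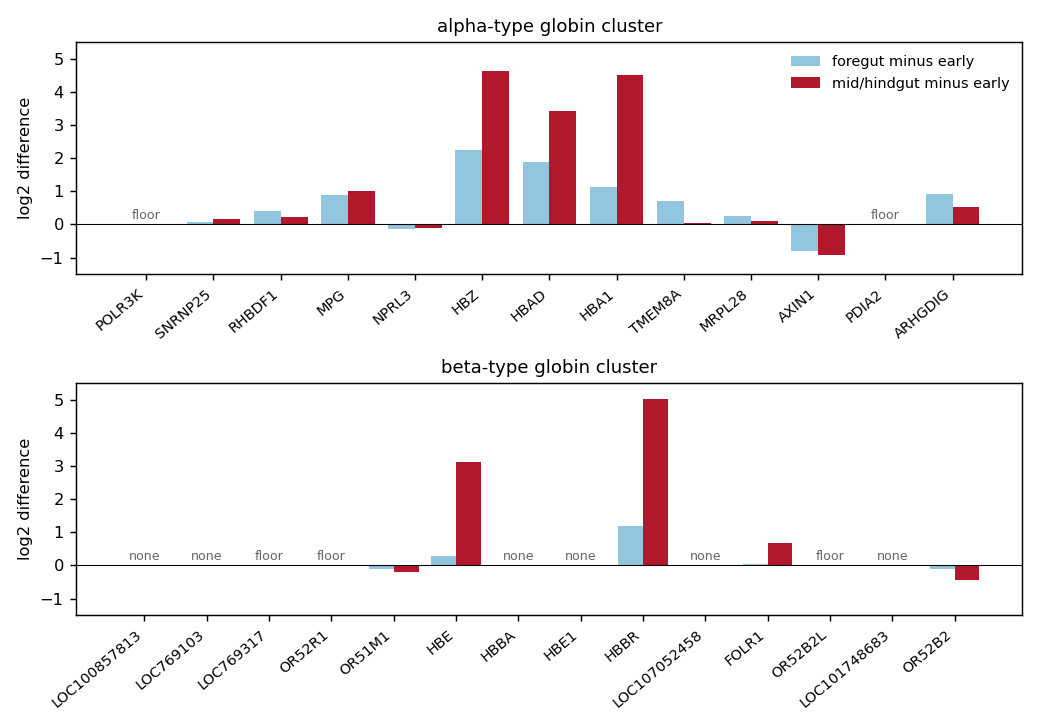
Log2 differences of the globin genes and the 5 protein-coding genes on either side, in chromosomal order, foregut minus early (light blue) and mid/hindgut minus early (red). "none" marks a gene without a probe set of its own and "floor" a gene below the floor in all pools. In mid/hindgut all bars above 1 are globins, from HBE at 3.12 to HBBR at 5.02.

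Globins outside the red cell had no call. Myoglobin (MB), which binds oxygen in muscle, had 3.97, 19.1 and 6.55, and cytoglobin (CYGB) 1.29, 3.86 and 12.4, all below the floor. Neuroglobin (NGB) was over the floor in foregut alone, at 25.4, and GBE, globin E of the bird eye, had 42.4, 67.3 and 41.9. Values are given here and below in the order early, foregut and mid/hindgut.

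The remaining genes of the red cell were listed by role. The list counts here and below stand beside these shares of all measured genes. In mid/hindgut against early endoderm 8.12% were higher and 5.14% lower, and in foregut against early 10.6% and 6.5%. In mid/hindgut against foregut 5.74% were higher and 6.36% lower. The haem, membrane and enzyme counts for mid/hindgut against early endoderm lie near these shares. Of 11 red cell markers other than the members, 6 had a probe set, 3 were above the floor in some pool, and none was called in any comparison. SLC4A1 (band 3, the anion exchanger of the red cell membrane), RHAG (a membrane ammonia channel) and GFI1B (a repressor of the red cell line) were below the floor in all pools. Their highest signals were 5.95, 21.5 and 8.38. That of RHAG came from its second probe set in early endoderm, while the first reached 15.5 in mid/hindgut. SPTB, a spectrin of the membrane skeleton, had 22.0, 17.7 and 43.5, above the floor in mid/hindgut alone, so that its log2 difference of 0.97 is a bound. ANK1, which anchors spectrin, had 35.5, 44.8 and 43.8, and EPB42 had 25.7, 4.73 and 13.8. A signal below the floor does not show that a transcript is missing.

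Of 9 measured red cell transcription factors, 2 (TAL1 and LMO2) were higher and 1 was lower in mid/hindgut than in early endoderm, with a median of 0.55. LMO2, which joins TAL1 in one complex and is also made in endothelium, had 97.8, 1826 and 2739.7, which is 28.0-fold higher in mid/hindgut and 18.7-fold higher in foregut than in early endoderm. Its second probe set had log2 differences of 4.71 and 3.95. BCL11A, a repressor of embryonic and fetal globin genes in mammals, had 152, 24.0 and 42.1, which is 3.61-fold lower in mid/hindgut and 6.31-fold lower in foregut. BACH1, a haem-binding repressor, had 432, 277 and 802, 2.89-fold higher in mid/hindgut than in foregut, but 0.93 in log2 when scaled on hybridisation controls. GATA2, a factor of blood precursors, had 24.2, 26.4 and 8.62, and RUNX1, MYB and ZFPM1, the partner of GATA1, were below the floor throughout.

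Of 14 measured genes of haem synthesis and transport, 1 was higher and 1 lower in mid/hindgut than in early endoderm, and the median was 0.02. ABCB10, a mitochondrial transporter, had 376, 579 and 768, 2.04-fold higher in mid/hindgut than in early endoderm, and lost the call in 4 of the alternatives, down to a log2 difference of 0.18. ABCB6, a porphyrin transporter, had 64.9, 37.0 and 32.5, which put mid/hindgut lower at the 2-fold mark itself. In foregut ALAD, an early enzyme of the pathway, was 2.46-fold and HEBP1, a haem-binding protein, 2.21-fold higher than in early endoderm, each within 2-fold without scaling. HEBP1 was 2.31-fold lower in mid/hindgut than in foregut. SLC25A39, a mitochondrial carrier needed for haem synthesis, was not called on its brightest probe set, a shared one with 253, 324 and 255, but another had 55.6, 254 and 205, log2 differences of 2.19 in foregut and 1.89 in mid/hindgut. The last, also unshared and above the floor on all arrays, had 106, 134 and 121, log2 differences of 0.34 and 0.19, and gave no call. ALAS1, which starts the pathway, had 378, 404 and 492. The RefSeq annotation lists ALAS2, the name of the red cell form, as another name of this chicken gene, so the signal cannot be given to one form. FECH, which inserts the iron, had 109, 102 and 148.

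Of 12 measured iron genes none was called in mid/hindgut against early endoderm, and the median was 0.04, but the probe sets of transferrin disagreed. TF, the iron carrier of plasma, was represented by its brightest probe set, with 2011.5, 1721 and 1981, a set shared between transcripts. A TF probe set without that mark had 177, 5757 and 4122, log2 differences of 5.02 in foregut and 4.54 in mid/hindgut, and a further shared one had 97.5, 3360.1 and 2385 (5.11 and 4.61). The last had 15.4, 48.4 and 30.1. Whether TF differed thus depends on the probe set, and without shared probe sets it was called higher in both later pools. The transferrin receptor TFRC, through which red cell precursors take up iron, had 344, 644 and 519. SLC25A37, a mitochondrial iron importer, had 99.6, 215 and 104, 2.16-fold higher in foregut than in early endoderm and 2.07-fold lower in mid/hindgut than in foregut. This is a shared probe set. Another shared one, above the floor on all arrays, had 42.7, 53.6 and 31.1. Its log2 differences were 0.33 for foregut against early and −0.78 for mid/hindgut against foregut, so it gave neither call. The one that is not shared was below the floor on all arrays, with a highest signal of 6.59. Of 14 measured red cell membrane genes 1 was higher in mid/hindgut than in early endoderm, with a median of 0.18. It was AQP1, a water channel of red cells and of some endothelium, with 3.29, 23.1 and 101, at least 4.57-fold higher in mid/hindgut than in early endoderm and 4.39-fold higher than in foregut. Neither was called with the floor at the 60th percentile.

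Among 11 measured red cell enzymes and other red cell genes mid/hindgut was above early endoderm for 1 and below it for 1, and their median was 0.13. TSPO2, a translocator protein of red cell precursors in mammals, had 15.1, 52.4 and 58.9, at least 2.66-fold higher in mid/hindgut and at least 2.37-fold higher in foregut, with no value over the 60th percentile floor. BPGM, which makes a regulator of oxygen binding in mammalian red cells, was 2.21-fold lower in mid/hindgut and 2.03-fold lower in foregut, on a shared probe set. Its other probe set was below the floor on all arrays and gives no second measure. In foregut MICALL2 was 2.62-fold and GPX1, a glutathione peroxidase, 2.01-fold higher than in early endoderm. GPX1 lay at the 2-fold mark itself, and was within 2-fold without scaling and when arrays were scaled on their medians. MICALL2 was not called with the median across probe sets or with the floor at the 60th percentile.

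Erythropoietin and KIT signalling acts in red cell growth and in many other tissues. Of 9 measured genes, 5 were higher and none lower in mid/hindgut than in early endoderm, where 8.12% of all genes were higher, and the median was 1.09. The count was 3 to 5 over the alternatives. In foregut 6 of 10 were higher, where 10.6% of all genes were, and the median was 1.64, with a count of 4 to 8. Among those not called, the kinase LYN had 335, 215 and 214 and JAK2 53.9, 45.6 and 50.5. KITLG, the ligand of KIT, had 45.2, 138 and 385, 8.52-fold higher in mid/hindgut than in early endoderm. KIT, its receptor, had 43.4, 282 and 16.6, higher in foregut than in early endoderm by a log2 difference of 2.70 and at least 12.7-fold lower in mid/hindgut than in foregut. SOCS2, a feedback inhibitor of cytokine signals, had 76.3, 1033 and 649, 8.51-fold higher in mid/hindgut and 13.5-fold higher in foregut. STAT5A, a factor activated by the erythropoietin receptor, was 2.35-fold higher in mid/hindgut and 3.17-fold in foregut. The first was within 2-fold without scaling and when arrays were scaled on ribosomal protein genes. SOCS3, a related inhibitor, had 12.5, 81.3 and 53.4, and the adaptor SH2B3 18.1, 94.5 and 47.2, and neither was called in either later pool with the floor at the 60th percentile. EPO and EPOR had no named probe set.

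Carbonic anhydrases, which hydrate carbon dioxide, were set beside CA2. Of 7 measured in foregut against early endoderm 3 were higher, CA2, CA9 and CA7, with a median of 0.74. CA9, a membrane-bound form, had 1810.4, 6520 and 1755, 3.60-fold higher in foregut than in early endoderm and 3.72-fold lower in mid/hindgut than in foregut. Like CA2 it peaked in foregut, but early and mid/hindgut were level. CA7 had 18.8, 58.0 and 47.7, on a shared probe set, with its others below the floor on all arrays. Its call in mid/hindgut was lost in 5 alternatives and that in foregut in 3. CA10, a related protein without enzyme activity, had 63.0, 90.4 and 22.9, 3.95-fold lower in mid/hindgut than in foregut and 2.76-fold lower than in early endoderm. Both calls were lost with the median across probe sets and with the floor at the 60th percentile.

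**Figure D5:**
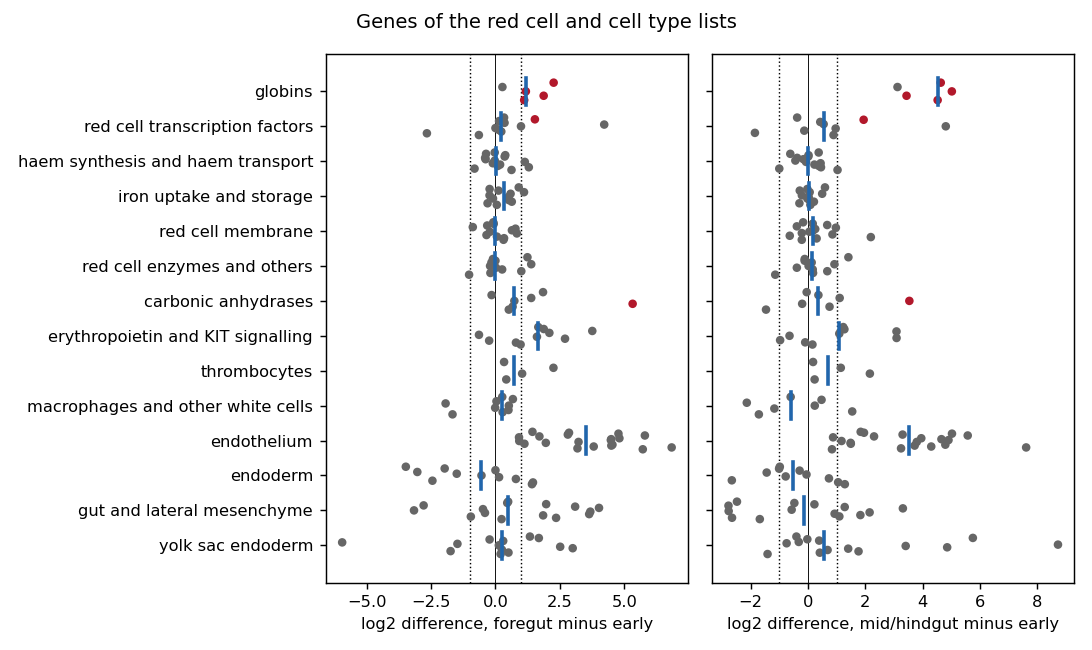
Log2 difference from early endoderm of each gene above the floor (points) in 14 lists, foregut on the left and mid/hindgut on the right; red points are members, blue bars list medians and dotted lines 2-fold. In mid/hindgut the globins have a median of 4.52, while the medians of the haem, iron and membrane lists lie near 0, and the endothelium list has medians of 3.52 in foregut and 3.51 in mid/hindgut.

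Genes that mark other cells also differed between the pools, and their part in the differences of the red cell genes was not tested. In bulk RNA, fewer cells of a type and less RNA per cell cannot be told apart. Of 20 measured endothelium genes 18 were higher and none lower in each later pool than in early endoderm, and the summed signal of the list was 617, 12287 and 12623. CDH5, the cadherin of endothelial junctions, had 5.16, 2535 and 4331, and SOX18, a vessel transcription factor, 22.4, 1251 and 1069. The receptor TEK had 3.21, 606 and 720.5, and the factor FLI1 43.8, 976 and 1309. Between the later pools the endothelium median was 0.25 and 1 gene was 2-fold apart, the vessel growth factor ANGPT2, at 1528 in foregut against 51.9. Between the same pools the member globins were 2.96-fold to 14.3-fold higher in mid/hindgut, TAL1 was within 2-fold and CA2 was 3.45-fold lower.

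Of 4 measured thrombocyte genes, which mark the bird's counterpart of platelets, 2 were higher in each later pool than in early endoderm, and the summed signal was 173, 524 and 367. GP9, a platelet glycoprotein gene, had 19.3, 45.4 and 98.9, and the integrin ITGB3 77.7, 370.0 and 172. GP9 thus had the order of the globins and ITGB3 that of CA2. GP9 was below the floor in early endoderm, so its log2 difference of 1.04 in foregut is a bound at the 2-fold mark. Another ITGB3 probe set had 36.9, 92.8 and 61.6, within 2-fold in mid/hindgut (0.74). The count of higher thrombocyte genes was 1 to 2 in mid/hindgut and 1 to 3 in foregut over the alternatives. Of 7 measured white cell genes 1 was higher and 3 were lower in mid/hindgut than in early endoderm, with summed signals of 1068, 827 and 759. The lower genes were CYBB, CD74 and CSF1R and the higher one CEBPB. PTPRC, the marker of all leukocytes, and SPI1, a myeloid factor, were below the floor in all pools.

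Of 14 measured yolk sac endoderm genes 6 were higher and 1 lower in mid/hindgut than in early endoderm, and the summed signal was 9369, 5925 and 24254. The higher count was 4 to 7 over the alternatives. TF is in this list and in the sum by its brightest probe set (2011.5, 1721 and 1981), where an unshared one had 177, 5757 and 4122. The order of the early and foregut sums depends on that choice. GUCA2B, a gut peptide gene, had 23.4, 25.7 and 9887, TTR, a thyroid hormone carrier, 87.5, 282 and 4718, and FGB, a fibrinogen chain, 98.2, 785 and 2845. TTR and FGB had the order of the globins, as did FGG with 42.8, 244 and 455. GUCA2B was high in mid/hindgut alone. APOB, with 8.66, 15.7 and 75.2, and FGA, with 3.08, 9.63 and 58.6, were above the floor in mid/hindgut alone. Neither of these was called with the floor at the 60th percentile. APOB was also not called with the median across its 7 probe sets, where its log2 difference was 0. GUCA2B and TTR make up most of the summed signal in mid/hindgut. Others of the list did not follow: APOA1, a lipoprotein, had 3305, 990.3 and 1244, the retinol carrier RBP4A 2649, 43.0 and 2119, and vitronectin (VTN) 589, 1492 and 446. AFP, alpha-fetoprotein, was above the floor in foregut alone, at 25.5. Several genes of this list are also made by gut endoderm and liver. Of 15 measured gut mesenchyme genes 7 were higher and 2 lower in foregut than in early endoderm. In mid/hindgut against early endoderm 5 of 14 were higher and 5 lower. Between the later pools 7 of 15 were lower in mid/hindgut and 1 was higher. The summed signals were 3642.5, 4193 and 1418, and they hide opposite differences in foregut. PRRX1 had 46.6, 398 and 113, and LUM 3.63 (below the floor), 284 and 98.3. By contrast the 2 genes lower in foregut were SNAI2, with 740, 107 and 108, and PDGFRA, with 198, 17.9 (below the floor) and 29.1. COL1A2 had 1957, 1011 and 312, just within 2-fold in foregut (log2 difference −0.95) and 6.27-fold lower in mid/hindgut than in early endoderm.

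Of the endoderm markers, 2 of 10 measured were higher and 3 lower in mid/hindgut than in early endoderm, and 2 of 11 were higher and 5 lower in foregut, with summed signals of 30515, 17232 and 22375. Higher in both later pools were CDH1, with 227, 607 and 554, and CLDN3, with 414, 1138 and 860, the latter 2.08-fold in mid/hindgut. CLDN3 lay near the 2-fold mark there and was within 2-fold without scaling. The count of endoderm markers higher in mid/hindgut was 1 to 2 over the alternatives. EPCAM, an adhesion protein, had 5357, 9297 and 8896, FOXA2, a pioneer factor, 1488, 1023 and 868, and HHEX, a factor of anterior endoderm, 1600.3, 1603 and 1308. SOX17, a factor of definitive endoderm, had 9773, 878 and 4947, log2 differences of −3.48 in foregut and −0.98 in mid/hindgut. Its second probe set had 1308, 38.8 and 150, log2 differences of −5.08 in foregut and −3.13 in mid/hindgut. Whether SOX17 was called lower in mid/hindgut thus depends on the probe set. Lower in both later pools were CXCR4, a chemokine receptor, with 6944, 1277 and 1102, GATA6 with 1126, 138 and 415, and HNF4A with 86.6, 4.49 and 43.1, the last not called in mid/hindgut in 4 alternatives. GATA5 had 3472, 1228 and 3350, 2.83-fold lower in foregut than in early endoderm. Its second probe set had a log2 difference of −0.83 there, within 2-fold. GATA4 was below the floor in all pools.

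The genes closest to the members in both differences from early endoderm were sought among 7888 genes with a signal of at least 4 times the floor, over 3 arrays. Closest to the mean of the 4 globins (log2 differences 1.61 in foregut and 4.40 in mid/hindgut) were PITX1, a homeobox gene of the hindlimb (distance 0.10), NR5A2, a nuclear receptor of endoderm and liver (0.20), and RAPGEF3, a cAMP-activated exchange factor (0.28). PITX1 had 12.1, 65.4 and 499. Closest to CA2, at distances of 0.66 to 0.75, were FLT4, a receptor of lymphatic and early vessels, LOC768772 and EMP1, a membrane protein gene with 24.9, 1670.1 and 296. Closest to TAL1 were ARID5B, LY75 and LGR5, at distances of 0.08 to 0.11. These distances are between floored values: HBBR, HBAD, TAL1, PITX1 and RAPGEF3 were below the floor in early endoderm, so their differences are bounds. With 3 arrays such likeness describes these values alone.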

How the data were processed

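RNA from 3 pools, 1 for each tissue, was hybridised to 1 array each. The authors deposited signal intensity values on a linear scale, made with MAS5 per the submitters' processing notes; its version and settings were not given in the sources used here. The number of arrays limits the precision.

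Arrays of 38535 probe sets were scaled to the mean of their 2% trimmed means (factors 0.881, 1.09 and 1.06), floored at 22.1 and compared as log2 differences, with Python 3.11.15, pandas 2.3.3 and numpy 2.4.6; figures were drawn with matplotlib 3.10.9. Probe sets annotated to several genes (177) were left out, and names were updated through gene identifiers where the current annotation held these. A gene was represented by its brightest probe set on average after flooring. The code was tested on simulated data. The members, lists, floor, size rule and alternatives (scaling, floor, probe set choice and size) were chosen with earlier results of these data known. The design counted 7 member genes, of which 6 were measured. Genes named are all members and globins, and the 3 most alike to each target. The plan was also to name up to 4 per list and comparison that were 2-fold apart, largest first. Not all of these are named. Other genes named, cluster neighbours included, were chosen after their values were seen. Sequences were not used here.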

Additional observations from a re-analysis of the deposited data

How the results depend on the processing

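With 1 array a group no replicate could be left out. No paired analysis was possible because no result comes from a test. The count of members at least 2-fold higher in foregut than in early endoderm, 6 as reported, was 3 when 3-fold was asked, 2 with the floor at the 60th percentile and 3 with the median across probe sets, since several foregut signals lie near or under those limits. The 3 under that median were HBBR, HBZ and CA2, whose single probe set leaves the median nothing to change. The other 30 counts of members, over 3 comparisons, were within 1.5 times the reported ones. Scaling set the balance over all genes. For mid/hindgut against early 874 genes were higher and 553 lower as reported, 629 and 851 without scaling, and 627 and 805 on ribosomal protein genes. For foregut against early these were 1146 and 703 as reported, 742 and 1213 without scaling, and 2998 and 320 on hybridisation controls. For mid/hindgut against foregut they were 627 and 695 as reported, 383 and 1271 on ribosomal protein genes, and 242 and 2456 on hybridisation controls. A floor at the 20th percentile gave 1390, 1700.0 and 1021 higher genes in these comparisons, and one at the 60th 520.0, 728 and 402. TAL1 between the later pools was 0.41 as reported and −0.19 on hybridisation controls, within 2-fold in both. The iron genes higher in foregut than in early endoderm numbered 1 as reported and 0 to 6 over the alternatives. Signals under 22.1 units have no order, so the folds of HBBR, HBAD and TAL1 against early endoderm are bounds.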
